A study of Capra hircus with 12 samples.

Results

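The genes described here encode the proteins of the mitochondrial ribosome, measured by RNA-seq in cultured goat temporomandibular joint (TMJ) cells. They were taken as the rows of the count tables whose symbol is MRPL or MRPS followed by a number, with or without a letter from A to C, which gave 77 of 28910 rows. By symbol, 49 of them belong to the large subunit (MRPL) and 28 to the small subunit (MRPS). All 77 were annotated as protein-coding, all had enough counts to be tested in every comparison, and the lowest count of any of them in any library was 59 (MRPS18C).

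The mitochondrial ribosome sits inside the mitochondrion and translates the few mRNAs that mitochondrial DNA encodes, all of which are core subunits of the respiratory chain and of ATP synthase. Its own proteins are encoded in the nucleus, made by cytosolic ribosomes and imported, so every protein of this machine starts from a nuclear transcript. Some of these proteins descend from the bacterial ribosome and the rest are found only in mitochondria. Inherited defects in several of them impair oxidative phosphorylation.

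The cells came from the condylar fibrocartilage of female goats obtained from abattoirs, were cultured and passaged, and carried no engineered allele. Cells of the superficial layer are called SLC and those of the cartilage layer beneath it MLC. In each layer 3 libraries carry the label IL-1β and 3 the label IL-1β+LOXL2. All 4 groups therefore received the inflammatory cytokine IL-1β, for an hour before harvest, and the cells of the IL-1β+LOXL2 groups had been transduced overnight with an adenovirus carrying lysyl oxidase-like 2 (LOXL2). For the flow cytometry of these cells the study describes an empty adenovirus, but for the RNA-seq it does not say whether the IL-1β groups received it, so LOXL2 and the virus cannot be told apart. Cells given vehicle were not part of the files used here. The study compared the treatments to ask what LOXL2 changes in inflamed TMJ cells, and it picked mitochondrial ribosomal subunits out of these same libraries, so the direction of the list is not independent evidence.

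Libraries held 14158607 to 28931652 counts. Levels are given as CPM, the counts of a gene scaled to a common library size. LOXL2 itself was at 458 to 561 CPM with IL-1β+LOXL2 and 615 to 633 CPM with IL-1β in SLC, and at 742 to 815 and 767 to 876 CPM in MLC, so the label of the treated libraries did not come with more counts on the goat gene. All directions below rest on the labels. The list of 7 fibrous layer genes, led by COL1A1, summed to 61619 to 74504 CPM in every library, and the cartilage markers COL2A1 and COL9A1 were at or near 0 in SLC but measured in MLC (COL2A1 10.4 to 20.8 CPM). The summed level of 8 chondrocyte markers was 1304 to 1429 CPM with IL-1β and 748 to 1303 CPM with IL-1β+LOXL2 in SLC, and 1767 to 1916 and 1484 to 1872 CPM in MLC, where the ranges overlap. COL11A1 gave most of this sum in every library, at 1167 to 1291 and 604 to 1159 CPM in SLC. COMP did not go lower with it (59.2 to 64.1 CPM with IL-1β and 59.3 to 96.3 CPM with IL-1β+LOXL2 in SLC). The part of these markers in the results was not tested. Immune, endothelial, muscle and osteoblast lists summed to 142 CPM or less in every library. CD14 gave most of the immune sum (47.2 to 133 CPM), CD68 was at 4.13 to 13.0 CPM, and PTPRC was at or near 0. Replicates of the IL-1β+LOXL2 groups differed from each other more than those of the IL-1β groups did in all pairs but 1, MLC replicates 2 and 3. Chi-square per degree of freedom was 31.5 to 171 between the SLC IL-1β+LOXL2 replicates and 6.10 to 36.1 between the MLC ones, against 2.3 to 9.94 within the IL-1β groups. No source says whether libraries came from separate animals or cultures, so p-values measure only the spread between these samples.

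The transcripts of the mitochondrial ribosome were more abundant in the IL-1β+LOXL2 libraries of both layers. In SLC, the 77 genes together summed to 2067, 2057 and 2226 CPM in IL-1β replicates 1 to 3 and to 2421, 4092 and 3284 CPM in IL-1β+LOXL2 replicates 1 to 3. Every treated library was above every IL-1β library, but the first treated replicate was close to the IL-1β range and the second was far above it. The mean was 2117 ± 95 CPM with IL-1β and 3265 ± 836 CPM with IL-1β+LOXL2 (SD, n = 3). In MLC the same sum was 2199, 2278 and 2147 CPM with IL-1β and 2447, 2858 and 3236 CPM with IL-1β+LOXL2, again without overlap (2208 ± 66.1 and 2847 ± 395, SD, n = 3). In such bulk samples, more cells of a kind and more RNA per cell cannot be told apart.

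**Figure D1:**
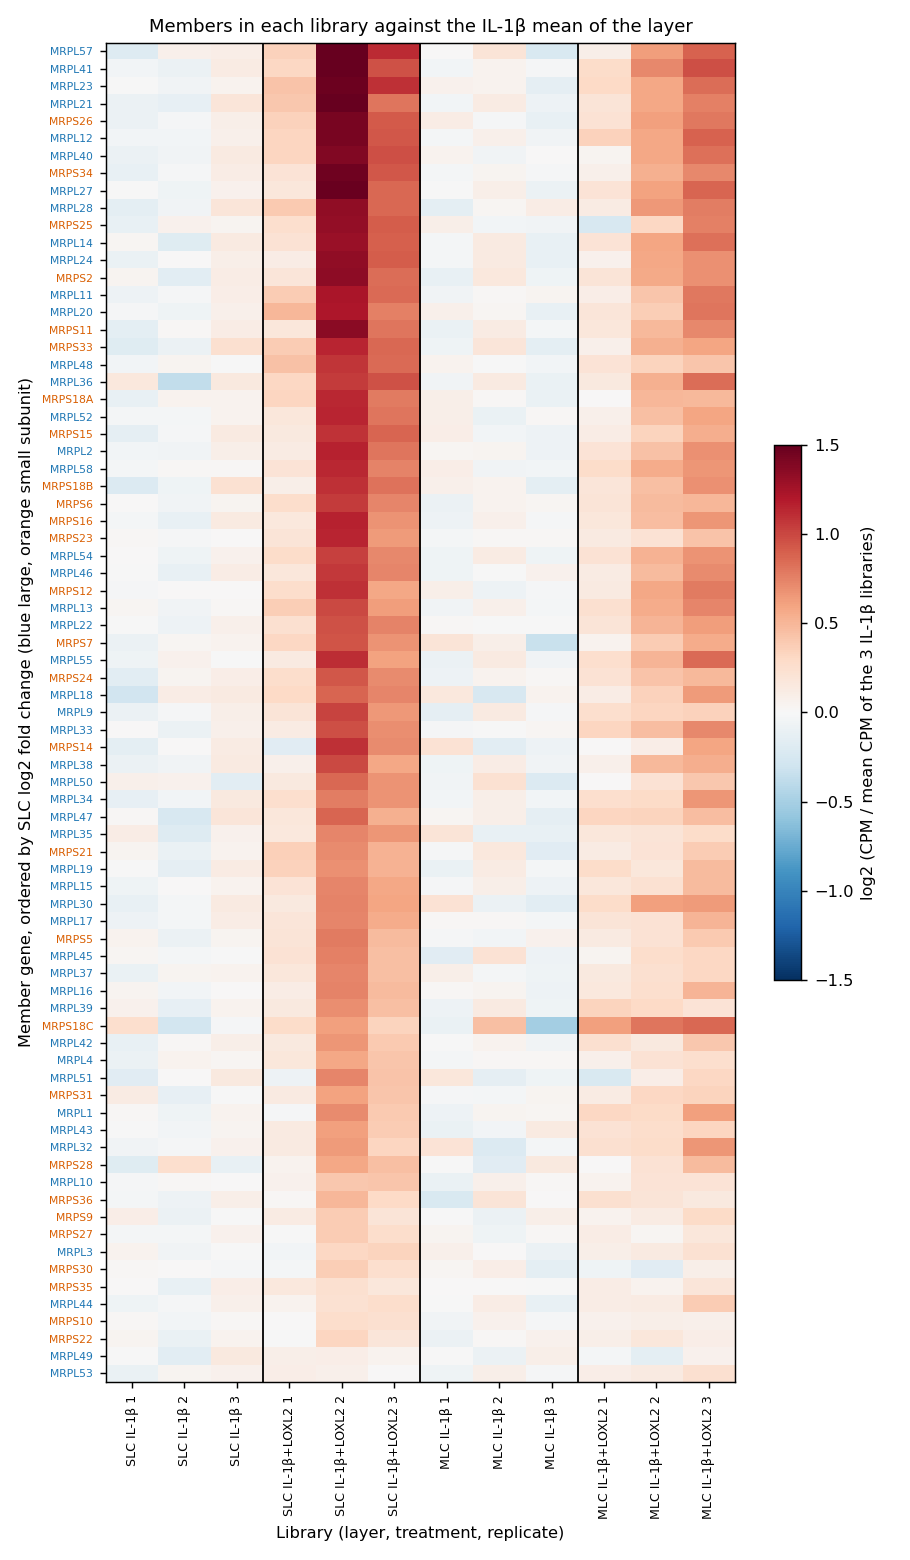
Heat map of the 77 genes (rows, ordered by log2 fold change in SLC, large subunit in blue and small subunit in orange) in the 12 libraries (columns), as log2 of the CPM over the mean CPM of the 3 IL-1β libraries of the layer, with colours cut at 1.5. Red fills most of the IL-1β+LOXL2 columns, deepest in SLC replicate 2 (median 0.96) and palest in replicate 1 of each layer (medians 0.17 in SLC and 0.15 in MLC), and the rows at the bottom stay near white.

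In SLC all 77 genes were higher with IL-1β+LOXL2, and their log2 fold changes ranged from 0.05 to 1.12 around a median of 0.64 (1.56-fold). The median of all 14103 genes tested was 0.01. None of the 77 passed an adjusted p of 0.05 with edgeR's quasi-likelihood test, and 0% of all genes did. The smallest adjusted p of a member was 0.0706. An unadjusted p under 0.05 was reached by 60 members, all higher with treatment, where 23.1% of all genes were higher at that level. DESeq2's Wald test called 51 members higher (34 large, 17 small), against 15.5% of all genes. For 61 members (41 large, 20 small) every IL-1β+LOXL2 library was above every IL-1β library, a pattern that 25.5% of all genes showed, and none had the opposite order (23.5% of all genes).

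The call in SLC turned on the first IL-1β+LOXL2 replicate. This library was the lowest of its group for 75 of the 77 genes and replicate 2 the highest for 73, whereas over all genes the same libraries were lowest for 46.3% and highest for 43.4%. Relative to the mean of the IL-1β libraries, the median log2 ratio of the members was 0.17 in replicate 1, 0.96 in replicate 2 and 0.67 in replicate 3. In 15 members replicate 1 was within or below the IL-1β range. Without replicate 1, edgeR called 72 of the 77 genes higher, where 31% of all genes were called higher, and the fits without any other SLC library called 0. In a fit on all 12 libraries 60 were called, with 22.5% of all genes.

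In MLC, 35 of the 77 genes rose with IL-1β+LOXL2 and none fell at an adjusted p under 0.05 (edgeR), where 9.81% of all 13664 genes tested rose and 11.8% fell. In all, 75 genes were higher and 2 lower, with log2 fold changes from -0.04 to 0.76 around a median of 0.37. The median of all genes was 0.01. DESeq2 called 36 members (10.9% of all genes), and 33 were called by both tools. Groups did not overlap for 52 members (36 large, 16 small), all higher with IL-1β+LOXL2, a pattern of 21% of all genes, whereas 20.5% showed the opposite one. The count of 35 rested on single libraries too. It was 60 without IL-1β+LOXL2 replicate 1 (23.7% of all genes), 2 without IL-1β replicate 2 (1.53%) or without IL-1β+LOXL2 replicate 3 (0.607%), and 0 without any of IL-1β replicate 1, IL-1β replicate 3 and IL-1β+LOXL2 replicate 2. In a fit on all 12 libraries, which shares the wide SLC spread, it was 0, with 0% of all genes.

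**Figure D2:**
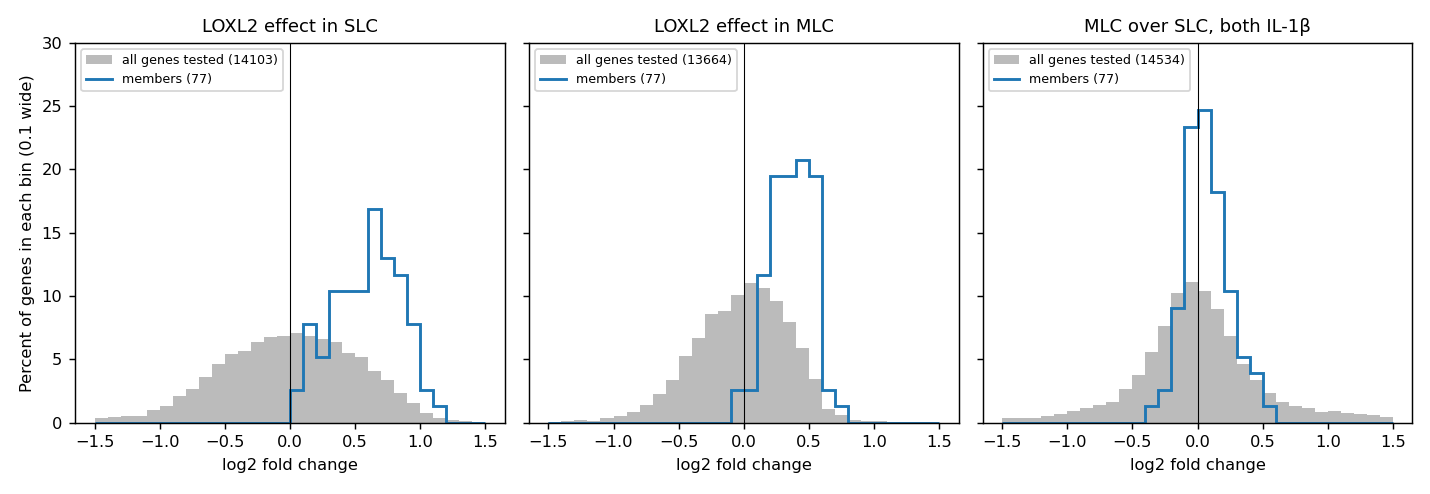
Histograms of log2 fold change (x axis, bins 0.1 wide) as percent of genes in each bin (y axis) for all genes tested (grey) and the 77 mitochondrial ribosomal protein genes (blue line), for the LOXL2 effect in SLC, the LOXL2 effect in MLC, and MLC over SLC under IL-1β. The blue line lies to the right of 0 in both treatment panels (medians 0.64 and 0.37) and is narrow and centred near 0 in the layer panel (median 0.04).

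The genes called in MLC covered many places in the ribosome. The 25 large subunit genes were MRPL1, MRPL2, MRPL9, MRPL11, MRPL12, MRPL13, MRPL14, MRPL17, MRPL20, MRPL21, MRPL22, MRPL23, MRPL24, MRPL27, MRPL28, MRPL30, MRPL33, MRPL36, MRPL40, MRPL41, MRPL47, MRPL54, MRPL55, MRPL57 and MRPL58. The 10 small subunit genes were MRPS2, MRPS6, MRPS11, MRPS12, MRPS16, MRPS18B, MRPS18C, MRPS24, MRPS26 and MRPS34. Of these 35, 31 were also past the threshold in SLC with DESeq2, where 8.09% of all genes tested in both layers met both calls.

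Genes of both subunits were higher with IL-1β+LOXL2. In SLC the median log2 fold change was 0.62 for the 49 large and 0.65 for the 28 small subunit genes. At an unadjusted p under 0.05, 42 large and 18 small subunit genes were higher, where 23.1% of all genes were. In MLC the medians were 0.41 and 0.33. There 25 large and 10 small subunit genes were higher past the adjusted threshold, where 9.81% of all genes were. The higher median was thus that of the small subunit in SLC and that of the large subunit in MLC, and members are not replicates, so this order was not tested. MRPS30 and MRPS18A carry a small subunit symbol but sit in the large subunit, and MRPS36 is a subunit of the 2-oxoglutarate dehydrogenase complex rather than of the ribosome. With the 3 genes placed accordingly the medians were 0.62 and 0.65 in SLC and 0.39 and 0.34 in MLC.

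The sums of the subunits were compared in every library. Large subunit transcripts summed to 2.11, 2.15 and 2.15 times the small subunit transcripts in the SLC IL-1β libraries and to 2.19, 2.25 and 2.24 times in the SLC IL-1β+LOXL2 libraries. In MLC the ratio was 2.20, 2.23 and 2.19 with IL-1β and 2.29, 2.3 and 2.39 with IL-1β+LOXL2. Every treated library was above every IL-1β library of its layer, although the mean differed little, from 2.14 ± 0.0226 to 2.23 ± 0.0337 in SLC and from 2.21 ± 0.0165 to 2.33 ± 0.0563 in MLC (SD, n = 3). A sum gives abundant genes more weight than a median does, and this ratio of counts is not a ratio of molecules.

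The 4 strongest responders in SLC were large subunit genes, as are 49 of the 77 genes, and the fifth was a small subunit gene. MRPL57 (chromosome 12, 51160795 to 51161452), a mitochondria-specific protein, measured 33.5, 40.3 and 40.9 CPM in the SLC IL-1β libraries and 48.8, 121 and 83.2 CPM in the SLC IL-1β+LOXL2 libraries. The groups did not overlap, and replicate 1 was again the nearest to the IL-1β libraries. Its log2 fold change was 1.12 (SE 0.30, adjusted p = 0.0706 with edgeR and 0.00608 with DESeq2), the largest of the 77 genes in SLC. In MLC it measured 54.6, 61.9 and 46.4 CPM with IL-1β and 57.7, 83.8 and 101 CPM with IL-1β+LOXL2. There the groups overlapped, with a log2 fold change of 0.57 (SE 0.17, edgeR adjusted p = 0.0386).

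MRPL41 (chromosome 11, 105784369 to 105785017), also specific to mitochondria, was the next in SLC and stood second in MLC. It measured 41.5, 40.3 and 46.5 CPM against 53.0, 132 and 83.1 CPM in SLC, and 45.6, 48.4 and 46.3 CPM against 56.4, 77 and 91.5 CPM in MLC. No treated library reached down into the IL-1β range in either layer. The log2 fold change was 1.05 (SE 0.30) in SLC and 0.68 (SE 0.15, edgeR adjusted p = 0.0199) in MLC.

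MRPL23 (chromosome 29, 50549544 to 50556029), the counterpart of the bacterial protein L23 at the mouth of the exit tunnel, measured 35.1, 34.0 and 36.3 CPM against 47.1, 97.2 and 75 CPM in SLC. In MLC it measured 38.4, 37.9 and 33.4 CPM against 45.1, 54.6 and 65.2 CPM. The groups were apart in both layers, with log2 fold changes of 1.04 (SE 0.24) and 0.59 (SE 0.13, edgeR adjusted p = 0.0205). DESeq2 gave MRPL23 an adjusted p of 0.00300 in SLC, the smallest among the 77 genes.

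The 5 highest in SLC were completed by MRPL21 (chromosome 29, 47289481 to 47299474) and MRPS26 (chromosome 13, 51474972 to 51477460). MRPL21, the counterpart of bacterial L21, had log2 fold changes of 0.96 (SE 0.27) in SLC and 0.52 (SE 0.15) in MLC. MRPS26 was the small subunit gene with the largest change in SLC, at 20.7, 21.7 and 23.3 CPM against 28.0, 59.0 and 41.3 CPM. Its log2 fold change was 0.95 (SE 0.25) in SLC and 0.56 (SE 0.14, edgeR adjusted p = 0.0241) in MLC, without overlap in either layer.

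MRPL12 (chromosome 19, 50485988 to 50490116) forms the flexible stalk that recruits translation factors, and it also binds the mitochondrial RNA polymerase. It measured 29.8, 29.7 and 32.2 CPM against 38.1, 82.1 and 58.4 CPM in SLC, and 35.1, 37.8 and 34.7 CPM against 45.4, 53.4 and 66.5 CPM in MLC. All treated libraries were above the IL-1β libraries of their layer. Its log2 fold change was 0.95 (SE 0.25) in SLC and 0.62 (SE 0.13, edgeR adjusted p = 0.0199) in MLC. Its neighbours at the base of the stalk differed from each other. MRPL11 had log2 fold changes of 0.84 in SLC and 0.46 in MLC, whereas MRPL10, which anchors the stalk, had 0.29 and 0.15 and did not pass the threshold in MLC.

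MRPL58, a peptidyl-tRNA hydrolase that was built into the ribosome and releases chains from stalled ribosomes, measured 32.9, 34.2 and 34.1 CPM against 38.7, 73.9 and 56.3 CPM in SLC. In MLC it measured 35, 31.5 and 31.7 CPM against 39.7, 48.4 and 51.8 CPM. Groups were apart in both layers, and the log2 fold change was 0.72 (SE 0.21) in SLC and 0.51 (SE 0.12, edgeR adjusted p = 0.0207) in MLC. Genes of the exit tunnel other than MRPL23 were on both sides of the median of the 77 genes. MRPL24 had log2 fold changes of 0.85 and 0.46 in SLC and MLC, MRPL22 of 0.66 and 0.46, and MRPL45, which tethers the ribosome to the inner membrane, of 0.48 and 0.20. MRPS12, which lies at the decoding site of the small subunit, had 0.68 and 0.52. These places in the ribosome were chosen with the values known.

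**Figure D3:**
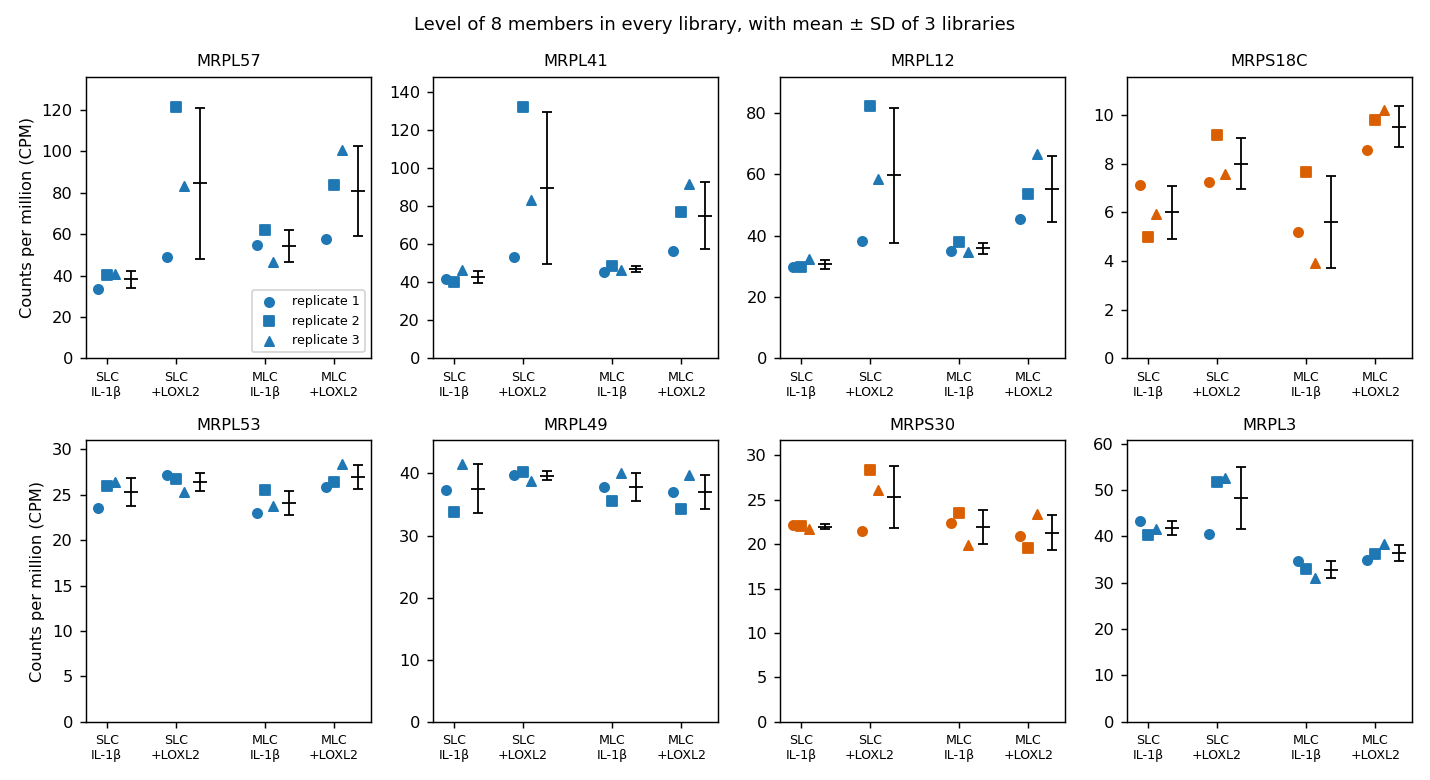
CPM (y axis, from 0) of 8 genes in each of the 12 libraries, with marker shape giving the replicate, large subunit in blue and small subunit in orange, and the mean ± SD of 3 libraries beside each group. MRPL57, MRPL41 and MRPL12 have widely spread IL-1β+LOXL2 groups in which replicate 1 is lowest and nearest to the IL-1β libraries, MRPS18C separates most in MLC, and MRPL53, MRPL49 and MRPS30 stay near their IL-1β levels.

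The 3 MRPS18 genes are paralogs of a single bacterial gene, S18, and their proteins occupy different sites. MRPS18C (chromosome 6, 98687504 to 98692190) measured 5.21, 7.66 and 3.93 CPM with IL-1β and 8.56, 9.80 and 10.2 CPM with IL-1β+LOXL2 in MLC. The groups did not overlap, and its log2 fold change of 0.76 (SE 0.21, edgeR adjusted p = 0.0292) was the highest of the 77 genes in MLC. In SLC it measured 7.13, 4.97 and 5.92 CPM against 7.25, 9.19 and 7.57 CPM, where the groups were barely apart and the log2 fold change was 0.40 (SE 0.18, edgeR adjusted p = 0.133). It was among the few members with a larger value in MLC than in SLC, but that difference was within its error (interaction 0.34, SE 0.31). MRPS18A, which sits in the large subunit, had log2 fold changes of 0.77 (SE 0.20) in SLC and 0.34 (SE 0.14, edgeR adjusted p = 0.0880) in MLC. MRPS18B had 0.71 (SE 0.25) and 0.45 (SE 0.14, edgeR adjusted p = 0.0395). The 3 paralogs were counted as separate genes, and how reads shared between them were treated is not given.

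The weakest responders were flat in most libraries. MRPL53 (chromosome 11, 10002452 to 10004578) measured 23.6, 26 and 26.4 CPM with IL-1β and 27.2, 26.8 and 25.3 CPM with IL-1β+LOXL2 in SLC, and 23.0, 25.6 and 23.8 CPM against 25.9, 26.5 and 28.4 CPM in MLC. The groups overlapped in SLC and were narrowly apart in MLC. Its log2 fold change was 0.05 (SE 0.11, edgeR adjusted p = 0.745) in SLC, the lowest of the 77 genes, and 0.16 (SE 0.10, edgeR adjusted p = 0.280) in MLC.

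MRPL49 (chromosome 29, 43753406 to 43757452) measured 37.4, 33.7 and 41.6 CPM against 39.8, 40.2 and 38.8 CPM in SLC, and 37.8, 35.5 and 40.1 CPM against 37.0, 34.3 and 39.7 CPM in MLC. The treated libraries lay inside the IL-1β range in SLC and across it in MLC. The log2 fold change was 0.06 (SE 0.11, edgeR adjusted p = 0.683) in SLC and -0.03 (SE 0.10, edgeR adjusted p = 0.836) in MLC. MRPL53 overlaps the annotated gene CCDC142 and MRPL49 overlaps SYVN1, so their counts are uncertain where the counting could not tell strands apart. In all, 16 of the 77 genes overlap another annotated gene.

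MRPS30 (chromosome 20, 30046943 to 30055464), a mitochondria-specific protein of the large subunit in spite of its symbol, measured 22.2, 22 and 21.7 CPM against 21.5, 28.4 and 26.1 CPM in SLC. In MLC it measured 22.4, 23.6 and 19.9 CPM against 20.9, 19.5 and 23.4 CPM. Groups overlapped in both layers, and the log2 fold change was 0.19 (SE 0.13, edgeR adjusted p = 0.272) in SLC and -0.04 (SE 0.12, edgeR adjusted p = 0.810) in MLC, the lowest there. MRPS10 measured 62.3, 60.0 and 62.6 CPM against 62.1, 74.3 and 73.0 CPM in SLC, with a log2 fold change of 0.16 (SE 0.10). In MLC its log2 fold change was 0.07 (SE 0.09).

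Also among the 5 lowest in SLC were MRPL44, an RNase III-like protein, and MRPS22. Defects in either are known from inherited oxidative phosphorylation disease, and both had a log2 fold change of 0.16 (SE 0.11 and 0.12). The 5 lowest in MLC included MRPL51 (0.08, SE 0.15) and MRPS27, a pentatricopeptide repeat protein of the small subunit (0.10, SE 0.10). MRPS36, the gene that encodes no ribosomal subunit, had 0.27 (SE 0.16) in SLC and 0.19 (SE 0.15) in MLC, with overlapping groups in both. None of these genes passed the threshold in MLC, and in SLC no gene at all passed it with edgeR.

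**Figure D4:**
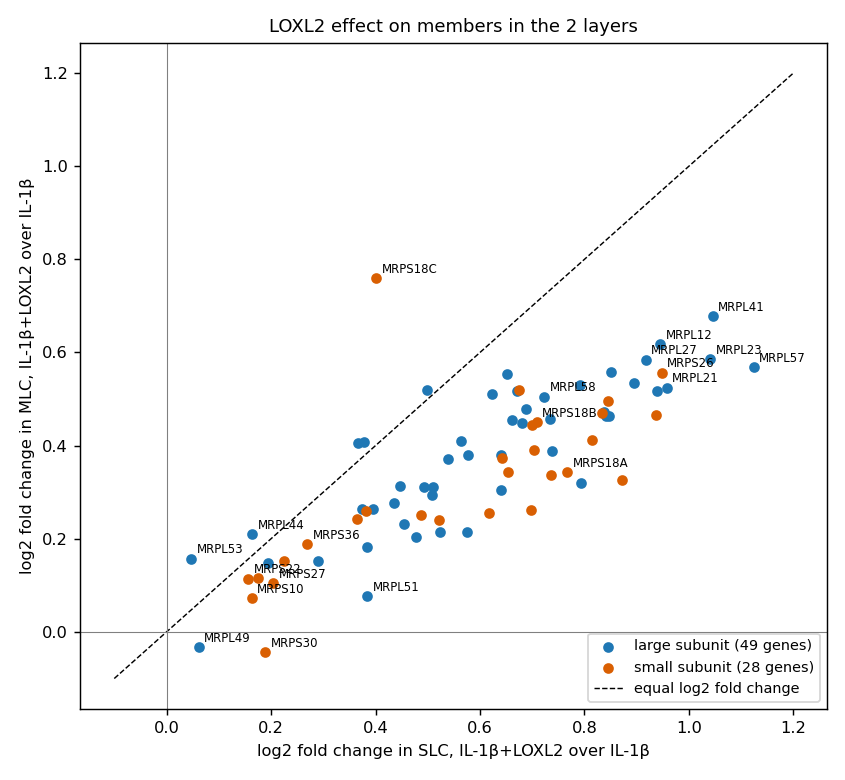
Log2 fold change of IL-1β+LOXL2 over IL-1β in SLC (x axis) against MLC (y axis) for the 49 large subunit genes (blue) and the 28 small subunit genes (orange), with a dashed line of equal change. Most points lie under the line (71 of 77 genes had the larger value in SLC), points of both colours are spread along it, and MRPS18C lies far above it.

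The order of the genes was similar in both layers, which share no library. Over the 77 genes, the log2 fold changes in SLC and MLC had a Spearman correlation of 0.80 and a Pearson correlation of 0.79, given as a description since genes are not independent. Of the 10 highest genes in SLC, 7 were among the 10 highest in MLC, and 8 of the 10 lowest were shared. For 46 genes the treated libraries were above the IL-1β libraries in both layers without overlap, as for 14.9% of the 13416 genes tested in both. MRPS11 and MRPL46 lie next to each other on chromosome 21 (18764245 to 18775050 and 18754460 to 18764220), and their log2 fold changes were 0.83 and 0.68 in SLC and 0.47 and 0.45 in MLC. The 76 genes with a place on the map were spread over 26 chromosomes.

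The effect was larger in SLC than in MLC for 71 of the 77 genes, yet the difference did not pass a test. Changes were larger in SLC over all genes too, with a median absolute log2 fold change of 0.38 against 0.25 in MLC. The interaction of layer and treatment in all 12 libraries had a median of -0.25 (MLC minus SLC) over the 77 genes (-0.23 for the large and -0.28 for the small subunit) and -0.02 over all 14534 genes. It was also below 0 for all 78 tested cytosolic ribosomal protein genes and for 36 of 37 Complex I genes of the respiratory chain. Of all 14534 genes, 7782 were below 0. No gene of the table passed an adjusted p of 0.05 (0%, edgeR and DESeq2), and the smallest unadjusted p were those of MRPL48, MRPS21 and MRPS23. MRPL48 measured 8.68, 9.23 and 8.93 CPM against 12.1, 18.7 and 16.2 CPM in SLC, and 10.8, 10.3 and 10.1 CPM against 12.0, 13.2 and 13.9 CPM in MLC. Treated libraries were above the others in both layers and further above in SLC. Its interaction was -0.49 (SE 0.21, unadjusted p = 0.0371 with edgeR), and it was the only one of the 77 genes under 0.05, where 2.26% of all genes were.

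Between layers, under IL-1β alone, few genes of the mitochondrial ribosome were called, and the count depended on the libraries fitted. In the fit on all 12 libraries, 14.2% of 14534 genes were higher and 11.4% lower in MLC than in SLC at an adjusted p under 0.05 (edgeR), but of the 77 genes none was higher and 1, MRPL3, was lower. At an unadjusted p under 0.05 there were 2 higher and 2 lower (19.2% and 16.8% of all genes), and DESeq2 called 0 higher and 2 lower (14.8% and 13.1%). A fit on the 6 IL-1β libraries alone called 13 members higher and 2 lower, where 24.2% and 22.7% of all genes were called. The median absolute log2 fold change was 0.11 for the 77 genes and 0.26 for all genes. A difference above 0.5 was seen in 1 member, MRPL57, and in 27.3% of all genes. Groups did not overlap for 15 members higher in MLC and 5 lower, where 27.6% and 27.3% of all genes showed these patterns.

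MRPL3 (chromosome 1, 138002275 to 138059429), the counterpart of bacterial L3 near the peptidyl transferase centre, measured 43.3, 40.3 and 41.6 CPM in SLC and 34.7, 32.8 and 31.0 CPM in MLC under IL-1β. Every MLC library was below every SLC library. Its log2 fold change between layers was -0.34 (SE 0.11, edgeR adjusted p = 0.0328), and its annotated span overlaps another gene. MRPS35 was next, at 33.9, 31.2 and 36.3 CPM against 28.6, 28.6 and 28.3 CPM (log2 fold change -0.25, edgeR adjusted p = 0.0534). On the other side were MRPL57 (0.51, SE 0.28), MRPL40 (0.42, SE 0.24), MRPS28 (0.40, SE 0.18), MRPL13 (0.40, SE 0.16) and MRPL36 (0.35, SE 0.22), none past the threshold. At the low end, MRPL30, MRPS21 and MRPS5 had -0.23, -0.16 and -0.16.

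Mitochondrial ribosomal protein genes are compact, and in these libraries fold change ran with genomic span (exons and introns together). The median span was 7028 bases for the 77 genes, from 649 for MRPL41 to 103336 for MRPS28, against 20774 for all genes tested in SLC. Over all genes, the Spearman correlation of span and log2 fold change was -0.49 in each layer. Over the 77 genes it was -0.34 in SLC and -0.38 in MLC. With the trend over all genes removed from each library, the median of the 77 genes was 0.44 in SLC (73 higher, 4 lower) and 0.27 in MLC (71 higher, 6 lower), with all-gene medians of 0.05 and 0.03. In MLC 16 then passed the threshold in place of 35 (14 large and 2 small subunit genes, 7.79% of all genes higher), and in SLC 0 passed and 55 were higher at an unadjusted p under 0.05 (23.2% of all genes).

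Genes of the subunits differ in span, with a median of 6046 bases for the large and 10440.5 for the small subunit. With the trend removed, the medians became 0.43 for the large and 0.46 for the small subunit in SLC, and 0.27 for both in MLC. The leading genes changed. The highest in SLC were then the long genes MRPS25 (1.14), MRPL48 (1.07) and MRPS6 (1.04), which had 0.87, 0.79 and 0.70 before, while MRPL57 and MRPL41 went to 0.68 and 0.61. The correlation with span over the 77 genes turned positive (0.37 in SLC and 0.34 in MLC). Neither the lead of the shortest genes nor that of the longest genes therefore held under both treatments of span.

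**Figure D5:**
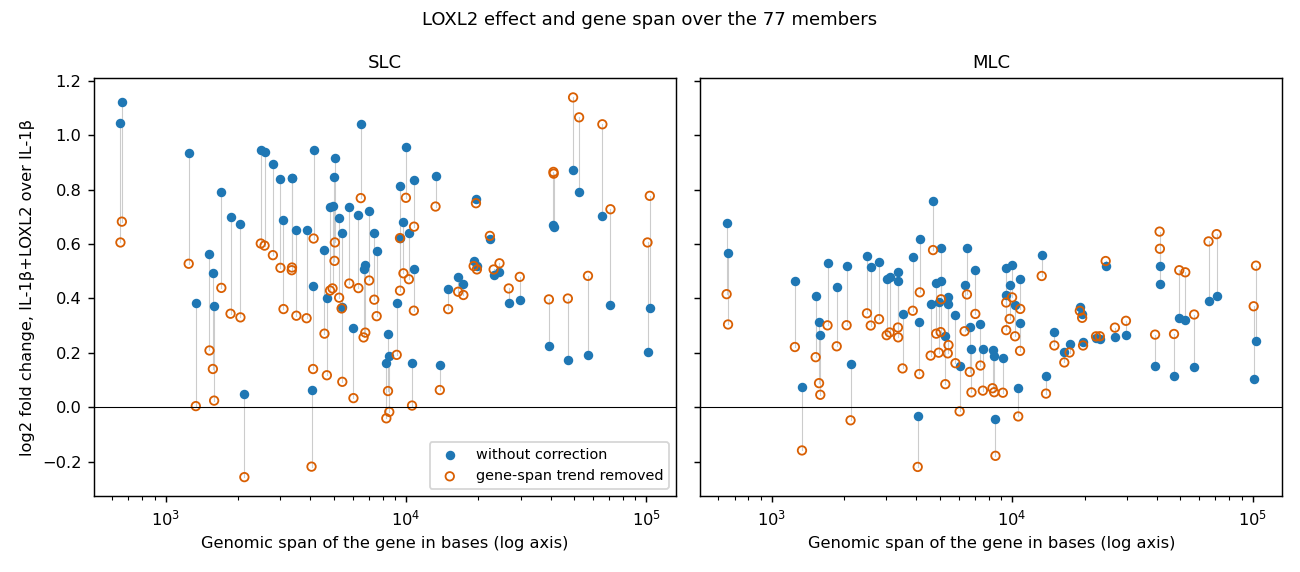
Log2 fold change of IL-1β+LOXL2 over IL-1β (y axis) against genomic span in bases (log x axis) for the 77 genes in SLC and MLC, without correction (filled blue) and with the gene-span trend of all genes removed (open orange), joined by a grey line per gene. Short genes drop and the longest genes climb with the removal, so that MRPS25, MRPL48 and MRPS6 lead in SLC in place of MRPL57 and MRPL41.

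Genes of the ribosome that descend from bacteria and those found only in mitochondria were compared by a division made with the values known. The 46 with a bacterial counterpart had medians of 0.65 in SLC and 0.41 in MLC, with 27 called higher in MLC. The 30 specific to mitochondria had 0.56 and 0.27, with 8 called higher. Of all genes, 9.81% were called higher in MLC. With the span trend removed the medians were 0.46 and 0.43 in SLC and 0.27 and 0.25 in MLC.

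Ribosomal proteins with other symbols were examined beside them. AURKAIP1 measured 36.8, 35.5 and 36.4 CPM against 49.6, 52.6 and 65.2 CPM in MLC, without overlap, and rose by a log2 fold change of 0.62 (SE 0.11, edgeR adjusted p = 0.0190). CHCHD1 rose too (0.51, SE 0.14), and GADD45GIP1 had 1.01 in SLC and 0.46 in MLC, past the threshold in both layers with DESeq2 (adjusted p = 0.0154 and 0.0427) and in neither with edgeR. DAP3, a GTPase of the small subunit, had 0.34 and 0.07, and PTCD3, a pentatricopeptide repeat protein, had 0.06 and 0.08. The median of these 5 genes was 0.81 in SLC and 0.46 in MLC.

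Of 27 assembly factors of the mitochondrial ribosome, 26 were tested. They were higher for 22 genes in SLC and 20 in MLC, with medians of 0.24 in each layer. In MLC 4 rose and none fell with edgeR, where 9.81% of all genes rose, so the share was not far from that of all genes. The 4 were MALSU1 (0.55) and MTG1 (0.52), which act on the large subunit, RCC1L (0.47) and the endoribonuclease YBEY (0.41). Translation factors and mRNA-binding proteins (12 of 15 written symbols were in the tables) were split without correction for span, with 7 higher in each layer and medians of 0.16 and 0.05. With the span trend removed, 11 of the 12 were higher in SLC and 9 in MLC (medians 0.11 and 0.06). The lowest value was then -0.02 in SLC and -0.06 in MLC. TUFM, the mitochondrial elongation factor that delivers aminoacyl-tRNA, rose in MLC (0.47, SE 0.10, edgeR adjusted p = 0.0200), as did SLIRP (0.53). These 2 of the 12 were the only ones called in MLC with edgeR, where 9.81% of all genes rose. LRPPRC, the partner of SLIRP, which stabilises mitochondrial mRNA, had -0.26 in SLC and -0.18 in MLC without correction for span. It did not pass in MLC, and no gene passed in SLC with edgeR.

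Regulators of mitochondrial biogenesis were not on the same side. Of 14 tested in SLC, 5 were higher (median -0.13), and of 13 in MLC, 3 were higher (median -0.05). With the span trend removed, 7 were higher and 7 lower in SLC (median 0.03). In MLC 4 were then higher and 9 lower (median -0.16). GABPA, a subunit of an ETS-family factor known for controlling nuclear genes of mitochondria, measured 52.6, 50.8 and 54.1 CPM against 45.8, 37.8 and 37.1 CPM in MLC. All its treated libraries were below the IL-1β libraries, and it fell by 0.39 on the log2 scale (SE 0.11, edgeR adjusted p = 0.0285). PPARGC1B, a coactivator, fell by 0.89 (SE 0.28, edgeR adjusted p = 0.0426) at a low level, 4.72, 2.68 and 3.99 CPM against 2.58, 2.15 and 1.41 CPM. These 2 of the 13 regulators were called lower in MLC and none higher, where 11.8% of all genes were called lower. The share was thus not far from that of all genes. TFAM, which packages mitochondrial DNA and takes part in its transcription, had -0.38 in SLC and -0.20 in MLC. It did not pass the threshold in MLC, and no gene did in SLC with edgeR. No member of this list passed in MLC with the span trend removed.

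The mRNAs that the mitochondrial ribosome translates were not higher as a group. The 13 mitochondrial protein-coding genes took 0.186, 0.184 and 0.194% of the counts in the SLC IL-1β libraries and 0.184, 0.137 and 0.158% with IL-1β+LOXL2. In MLC they took 0.231, 0.237 and 0.221% and then 0.214, 0.220 and 0.203%. All treated MLC libraries and 2 of the treated SLC libraries were below the IL-1β libraries of their layer, whereas the 77 nuclear genes went from 0.210 to 0.229% with IL-1β to 0.252 to 0.382% with IL-1β+LOXL2 in SLC. Of the 12 tested one by one, 4 were higher in SLC (median -0.32) and 5 in MLC (median -0.08). In MLC edgeR called 1 higher and none lower, where 9.81% of all genes were called higher and 11.8% lower. DESeq2 called none higher and 1 lower there, where 10.9% and 12.9% of all genes were called. With the span trend removed, edgeR called 5 lower in MLC, where 6.87% of all genes were lower. That trend was drawn over all genes, and whether it holds for mitochondrial transcripts was not tested. The libraries were made from poly-T selected RNA, and what this did to mitochondrial transcripts was not tested.

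Other gene families of mitochondria and ribosomes gave a scale for these values. The 37 Complex I genes, which encode the entry point of the respiratory chain, had medians of 0.74 in SLC and 0.46 in MLC, with 27 called higher in MLC. The 78 tested cytosolic ribosomal protein genes had medians of 0.85 and 0.44, with 73 called higher in MLC, where 9.81% of all genes were. Both families were on the same side as the mitochondrial ribosome, and nothing here is particular to it.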

How the data were processed

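RNA selected with poly-T beads was sequenced from both ends. The authors trimmed the reads, aligned them to goat assembly ARS1.2 and deposited raw counts per gene, 1 table for each layer. The submitters' processing notes name HISAT2 and featureCounts. Strand and multi-mapping settings are not given in the sources used here. No column was left out for lack of a sample.

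From the counts, 14103 (SLC), 13664 (MLC) and 14534 (all 12 libraries) genes passed filterByExpr (minimum count 10, total 15). The test was the quasi-likelihood F-test of edgeR 4.0.16 (R 4.3.3) after TMM scaling, with Benjamini-Hochberg adjustment over all genes tested and a threshold of 0.05. SLC and MLC were fitted apart. The layer and interaction contrasts used all 12 libraries. SE is the log2 fold change over the square root of F. CPM used TMM library sizes of all 12 libraries. DESeq2 1.42.0 (Wald test), DESeq2's size factors, other filters, the replicate number as a block, 1 fit to the 12 libraries together, leaving out each library, and an offset for gene span (lowess on log10 span, smoother span 0.3) were alternatives. Simulated counts with known fold changes were used to check the scripts.

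Genes named are the 5 highest and 5 lowest per layer, any member under 0, the 5 highest and lowest between layers, the 3 smallest interaction p, and MRPS18A, MRPS18B, MRPS18C, MRPS30, MRPS36, MRPL12 and MRPL58. The members and lists were chosen with earlier results of these data known. Further members (stalk, exit tunnel, decoding site, neighbours on chromosome 21, leaders after span removal) were named after their values were seen. Symbols matched RefSeq of ARS1.2 for 28884 of 28910 rows, and spans and coordinates are from that annotation. Levels per transcript length and promoter motifs were planned and not computed, since transcript lengths and sequences were not used here. With 3 libraries in a group, the spread between libraries sets the precision.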

Additional observations from a re-analysis of the deposited data

How the results depend on the processing

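Directions held widely but calls did not. The SLC count of genes called higher (0) was 51 with DESeq2's Wald test, 60 in a fit on all 12 libraries and 0 to 72 with a library left out. The MLC count (35) was 16 with the span trend removed, 0 in the fit on all 12 libraries and 0 to 60 with a library left out. Between layers, the count lower in MLC (1) was 2 with DESeq2's size factors, with at least 10 counts in every library, with the Wald test and on the 6 IL-1β libraries, and 0 to 2 with a library left out. The count higher (0) was 13 on those 6 libraries (24.2% of all genes were higher and 22.7% lower there) and 0 to 2 with a library left out. Interaction counts were 0 under every alternative run.

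The large minus small median in SLC (-0.024) was -0.041 with a replicate block and -0.046 to 0.0087 with a library left out. In MLC (0.074) it was 0.090 with the block, 0.0024 with the span trend removed, 0.050 by place in the ribosome and 0.056 to 0.107 with a library left out.

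Whether replicate numbers pair the samples is not stated. Deviations of same-numbered libraries had correlations of -0.320 to 0.246 in SLC and -0.105 to 0.194 in MLC. For libraries with different numbers they were -0.401 to 0.364 and -0.222 to 0.150. With 3 libraries in a group, these values cannot settle whether samples were paired. A replicate block moved the MLC count to 43 (13.5% of all genes, against 9.81% without it) and left SLC at 0 (0%).

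Signs turned in SLC with the span trend removed for MRPL53 (-0.26), MRPL49 (-0.22), MRPL44 (-0.041) and MRPS30 (-0.017), and in MLC for MRPL53 (-0.048), MRPS10 (-0.034) and MRPL51 (-0.16). With a library left out they turned in SLC for MRPL53 (-0.0029 to 0.081) and MRPL49 (-0.014 to 0.14), in MLC for MRPS30 (-0.12 to 0.013), MRPL49 (-0.087 to 0.018) and MRPL51 (-0.062 to 0.22), and between layers for MRPS18C (-0.39 to 0.10), MRPS30 (-0.053 to 0.063) and MRPS36 (-0.12 to 0.083). MRPS30 between layers was 0.000611 on the 6 IL-1β libraries. The causes were not tested. Of the other values of single named genes under an alternative, 218 in SLC and 189 in MLC kept direction and side of the threshold, 36 and 2 came past it, and 0 and 61 fell short of it. Medians over the 77 genes stayed positive with any library left out (0.43 to 0.80 in SLC, 0.27 to 0.48 in MLC).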
